A study of Mus musculus with 3143 samples.

Results

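B cells of the mouse kidney glomerular fraction were chosen by 2 measured sums, at least 300 CPM (reads of a gene per 1000000 reads of the cell) of Cd79a and Cd79b together and below 100 CPM of Cd3e, Cd3d and Cd3g together. Of 3143 cells, 169 met these limits, 44 of 1798 IgAN cells and 125 of 1345 Control cells. Cd79a and Cd79b encode the signalling chains that carry every surface B cell receptor, and the Cd3 chains do the same for the T cell receptor. Because Cd79a and Cd79b chose the cells, their levels in these cells are a description and carry no test.

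All cells came from kidneys of adult C57BL/6 mice and differed in 1 label, the treatment, IgAN or Control. IgAN is the usual short form of IgA nephropathy, where IgA settles in the glomeruli, and the labels do not say how it was induced. The glomerular fraction was digested with collagenase IV, pronase E and DNase I, cells that took up the dye CellTracker CMFDA-green were sorted singly into 384-well plates, and full-length cDNA was read by Smart-seq2, which carries no molecular identifiers. IgAN cells filled plates 313, 315, 316, 318, 322 and 325, and Control cells plates 314, 317, 321 and 326, so plate and treatment cannot be told apart. No animal is named, so each treatment is 1 sample and no test between treatments was made. The spread between plates is given as a description and does not measure replicate error. Gated cells held a median of 177898 reads in IgAN and 188212 in Control, and 4634.5 and 4012 genes with a read.

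A B cell carries 1 heavy chain and 1 kappa or lambda light chain, each joined from variable segments, so in principle 1 variable gene of each kind fills a cell's receptor transcripts. A resting B cell makes IgM and IgD from the same heavy chain locus. After activation it can switch to IgG, IgE or IgA, and a plasma cell secretes that antibody, joining IgA or IgM into polymers with the J chain. B cells are sparse in healthy kidney, and IgA made elsewhere is the antibody that defines the disease.

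Of the 20 genes that led the gated cells over all other cells, 9 had a start site window of 300 bases in the RefSeq promoter table (build GRCm38.p6). The window of Cd79a, which defines the gate, and that of Cd22, an inhibitory co-receptor and the only one of the 9 with the motif searched, are shown 5′ to 3′ on the strand of the gene. Capitals mark the palindromic motif of the early B cell factor Ebf1, TCCC and GGGA with 2 free bases between them, which reads the same on both strands and lies at bases 202 to 211 of the Cd22 window.
Cd79a (chr7:24897247-24897546, plus strand): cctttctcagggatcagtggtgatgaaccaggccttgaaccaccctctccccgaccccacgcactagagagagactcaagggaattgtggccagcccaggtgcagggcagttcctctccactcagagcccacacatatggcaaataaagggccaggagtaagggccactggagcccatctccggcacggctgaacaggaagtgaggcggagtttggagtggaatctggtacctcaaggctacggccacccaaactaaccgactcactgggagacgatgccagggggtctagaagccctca
Cd22 (chr7:30878979-30879278, minus strand): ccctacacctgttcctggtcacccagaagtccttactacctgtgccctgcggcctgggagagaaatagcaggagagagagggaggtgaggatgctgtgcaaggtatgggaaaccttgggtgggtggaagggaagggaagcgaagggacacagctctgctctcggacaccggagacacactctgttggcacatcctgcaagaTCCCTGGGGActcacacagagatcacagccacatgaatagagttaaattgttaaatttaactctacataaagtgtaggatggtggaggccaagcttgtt
The motif was present in 0.904% of the 32851 windows of the table. The octamer ATGCAAAT and its reverse complement ATTTGCAT, bound by Oct factors, were in 1.74% of windows and in none of the 9 leading genes. A match is a description of letters and not of a bound site. Only the exact letters were searched. A window without a match, such as that of Cd79a, was not searched for other forms of these sites.

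The gate fell in a thinly filled range. Cd79a and Cd79b together had no read in 1521 cells, lay above 0 and below 50 CPM in 1317, and lay between 200 and 300 CPM in 10. In 149 cells they reached 1000 CPM or more. The lowest members held 311, 338 and 368 CPM, and the highest cells below the gate held 296, 294 and 281 CPM. The Cd3 limit left out 5 cells.

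The low Cd79 values outside the gate followed the position of gated cells on the plate. On plate 313, 36.3% of 204 other cells that shared a well row or column with a gated cell had a Cd79 read, against 2.55% of 157 that shared neither. On plate 318 the shares were 89.7% of 136 and 5.73% of 157, and on plate 317 they were 78.9% of 265 and 2.33% of 43. Median Cd79 levels in such row or column neighbours were 0 to 24.6 CPM over the 10 plates, under the gate. A single read of a B cell gene is therefore not read as expression. The limit of 10 CPM used below does not clear these neighbour levels on every plate, so counts at 10 CPM can include such reads. Those of Ighm, Ighd and Igkc are also given in neighbours and at 100 CPM. The IgG genes are given at 100 CPM without neighbour counts. A limit of 100 CPM does not clear such reads everywhere. On plate 321, Igha in neighbours of its highest cell had a median of 112 CPM and reached 551 CPM.

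B cells made up 2.45% of the IgAN sample, with an exact 95% binomial interval of 1.78% to 3.27%. They made up 9.29% of the Control sample (7.80% to 11.0%), a share 3.80 times as high. These intervals, like all in this text, cover counting error only. The 6 IgAN plates lay between 1.37% and 4.27%, and the 4 Control plates at 5.44%, 7.51%, 14.1% and 10.7%, without overlap. Since cells of a sort are counted against all other cells sorted, the share also moves with how many other cells were recovered. T cells were gated at 300 CPM of the Cd3 genes and below 100 CPM of Cd79a and Cd79b. They numbered 41 in IgAN (2.28%) and 91 in Control (6.77%), so their pooled share was lower in IgAN too. Their plates overlapped, with IgAN plates at 1.02% to 4.92% and Control plates at 3.30% to 12.8%.

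**Figure D1:**
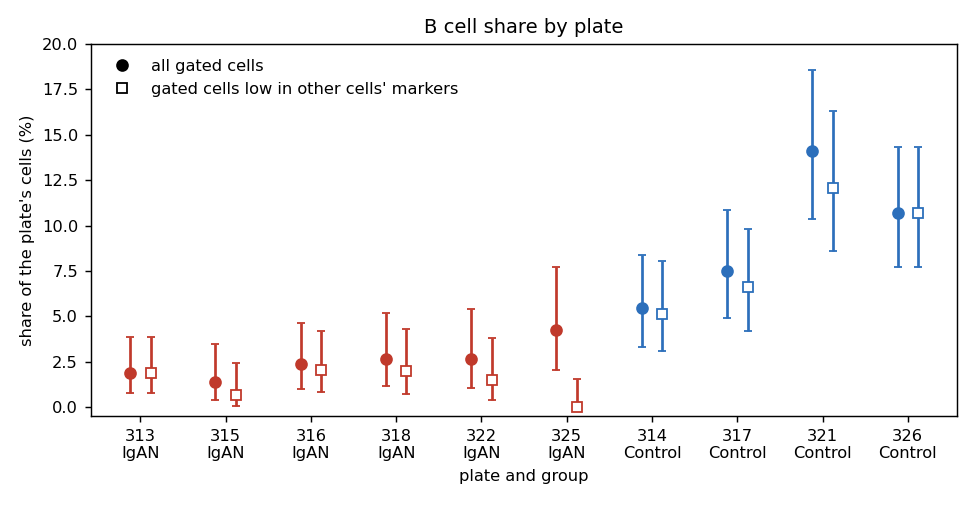
Share of each plate's cells (y axis, percent, with exact 95% binomial intervals) that met the B cell gate (filled circles) or met it and were low in other cells' markers (open squares), for 6 IgAN plates (red) and 4 Control plates (blue). Every Control plate lies above every IgAN plate, and on plate 325 no cell is left once cells high in other markers are set aside.

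The label B cell held for most of the gated cells and not for all. At 10 CPM or more, at least 3 of the 5 markers Cd79a, Cd79b, Ms4a1 (CD20), Fcmr (the IgM Fc receptor) and Ighd (the IgD constant region) were found in 33 of 44 IgAN cells and 112 of 125 Control cells, and at 100 CPM in 32 and 110. Among cells outside the gate in the row or column of a gated cell, 2.78% of 899 IgAN and 11.6% of 1089 Control cells held 3 at 10 CPM, and 1 cell in each group did at 100 CPM. Only 1 marker was found in 11 IgAN and 5 Control cells. Markers of macrophages and monocytes, such as Lyz2, Csf1r and C1qa, summed to 1000 CPM or more in 14 IgAN cells (31.8%) and 8 Control cells (6.40%). In these the median Cd79a was 3.60 CPM in IgAN and 14.5 CPM in Control, while Cd79b was at 404 and 471 CPM, and 8 of the 14 and 5 of the 8 had no read of a heavy chain variable gene. Endothelial markers reached 3000 CPM in 6 IgAN cells, all on plate 325, and in 1 Control cell.

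**Figure D2:**
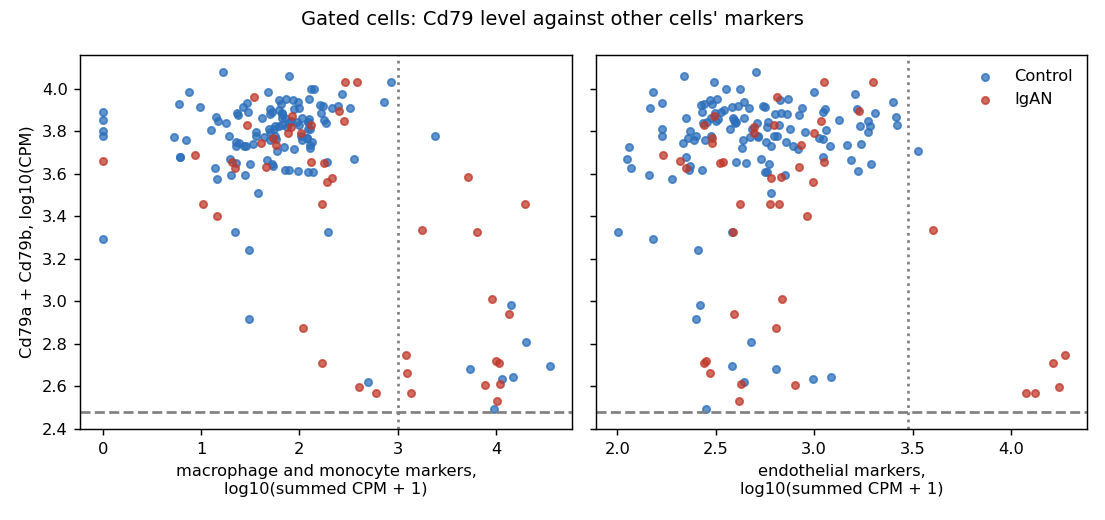
Each of the 169 gated cells by its Cd79a plus Cd79b level (y axis, log10 CPM) and its summed macrophage and monocyte markers (left) or endothelial markers (right; x axes, log10 of CPM plus 1), IgAN in red and Control in blue. Dotted lines mark 1000 and 3000 CPM, the dashed line the gate at 300 CPM, and most cells right of the dotted lines lie in the lower part of the Cd79 range.

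Setting aside cells with macrophage markers at 1000 CPM, endothelial markers at 3000 CPM or proximal tubule markers at 1000 CPM left 141 cells, 26 IgAN and 115 Control. They are called marker-low B cells here, and the limits were chosen after the values were seen. Of these, 26 IgAN and 109 Control cells held at least 3 of the 5 markers at 10 CPM. The other 6 are Control cells. They include the 3 IgA cells and a cell high in Siglech, all described below. The rest are 1 cell on plate 326 with 13.3 CPM of Ighm and 1 on plate 321 with 8646 CPM of Ighm. Marker-low cells were 1.45% of the IgAN sample (0.947% to 2.11%) and 8.55% of the Control sample (7.11% to 10.2%), and the Control share was 5.91 times as high.

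Plate 325 stood apart. All of its 10 gated cells were high in markers of another cell type. Wells H8, I7, I8, J8, J9 and L11 led with the same heavy chain variable gene, Ighv2-2, at 96.0% or more of 11 to 115 variable reads. Cell I7 held 2018 CPM of Cd79a, and the others 352 to 542 CPM beside 11845 to 18807 CPM of endothelial markers. Wells N12, N13 and O12 led with Ighv1-26 and held Cd79a at 3822, 747 and 2119 CPM with no read of Cd79b, and N13 had 3 variable reads in all. Within a plate, 6 IgAN cells shared both their leading heavy and leading kappa variable genes with another gated cell, all on plate 325, against 0 of 72 Control cells with a leading heavy chain variable gene. Whether these wells hold separate B cells was not tested, and the comparisons below are given with and without the cells set aside.

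The genes that set the gated cells apart were those of the B cell receptor complex and its co-receptors, which is a description, since the gate chose the cells. By the ratio to all other cells, those of the 20 that are reported here came in the order Cd79a, Cd79b, Fcmr, Ms4a1, Ighd, Cxcr5, Igkc, Iglc2, Ighm, Fcer2a, Spib, Ly6d, Siglecg, Fcrla, Pou2af1, Cd22, Hvcn1, Mzb1 and Pax5. Ms4a1 was at 591 CPM in IgAN and 1446 CPM in Control members, Fcmr at 859 and 1658 CPM, and Pax5, the factor that holds B cell identity, at 255 and 461 CPM.

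Cd79a reads, summed over gated cells, stood at 1832 CPM in IgAN (exact Poisson interval 1805 to 1858) and 3167 CPM in Control (3145 to 3189). IgAN plates ran from 986 over a median of 2099 to 3216 CPM, and the Control plates were at 3011, 2504, 3388 and 3482 CPM. The plates overlapped. In marker-low cells Cd79a was at 3181 CPM in IgAN and 3402 CPM in Control, a log2 difference of -0.10 (with 1 CPM added, as for all log2 differences here). Cd79b went from 1248 and 2429 CPM to 2030 and 2589 CPM, and Ms4a1 from 591 and 1446 CPM to 1115 and 1554 CPM. Over the 5 markers the median log2 difference was -0.95 in all gated cells and -0.19 in marker-low cells.

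IgM transcripts led the heavy chain reads in nearly all gated cells. Ighm, the IgM constant region (chromosome 12, 113418558 to 113422730, GRCm38), had the most heavy chain reads in 41 of 44 IgAN cells and 116 of 125 Control cells. That count sets no lower limit on reads. It takes in well N12 of plate 315, with 8.78 CPM of Ighm beside 10986 CPM of macrophage and monocyte markers. Among marker-low cells Ighm led in 25 of 26 IgAN and 106 of 115 Control cells. Ighm was at 10 CPM or more in 90.9% and 99.2% of gated cells. Outside the gate it was so in 30.5% of IgAN and 63.6% of Control cells that shared a row or column with a gated cell. At 100 CPM the shares were 84.1% and 93.6% of gated cells, against 4.67% and 8.54% of those neighbours. Ighd was at 10 CPM or more in 32 of the 44 IgAN members (72.7%, between 57.2% and 85.0%). In Control it did so in 90 of 125 (72.0%, between 63.3% and 79.7%), against 6.67% and 8.26% of such neighbours. At 100 CPM it was found in 31 of 44 and 84 of 125 gated cells, against 0.111% and 0.459% of neighbours. Among marker-low cells the counts at 10 CPM were 25 of 26 in IgAN (96.2%, between 80.4% and 99.9%). In Control they were 87 of 115 (75.7%, between 66.8% and 83.2%). Per plate these were 7 of 7, 2 of 2, 7 of 7, 5 of 6 and 4 of 4 cells in IgAN and 16 of 18, 16 of 22, 28 of 36 and 27 of 39 in Control. The lowest IgAN plate (5 of 6) lay below the highest Control plate (16 of 18).

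**Figure D3:**
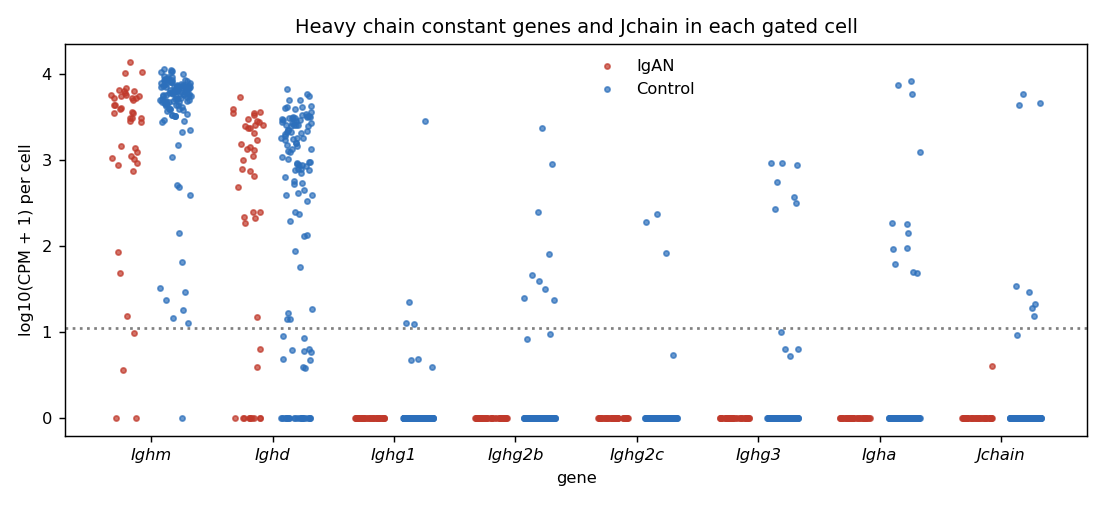
Level of each heavy chain constant gene and of Jchain (x axis) in each gated cell (y axis, log10 of CPM plus 1), IgAN in red and Control in blue, with 10 CPM dotted. Ighm and Ighd fill both groups, and the IgG genes, Igha and high Jchain are seen in Control cells only among these 169.

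Switched classes were found in Control cells and in no IgAN cell. Any IgG constant gene reached 100 CPM in 11 of 125 Control cells (8.80%, 4.48% to 15.2%) and in 0 of 44 IgAN cells, which allows a share of up to 6.82%. Since that limit lies within the Control interval, a difference was not detectable at this number of IgAN cells. Row or column neighbours were not counted for the IgG genes. Ighg3 was at 264 to 914 CPM in 7 Control cells that kept 4147 to 6358 CPM of Ighm. Of those 7, 6 held Ighd below 20 CPM, 6 held Fcer2a (CD23, the low-affinity IgE receptor of follicular B cells) below 10 CPM and 6 held at least 100 CPM of Zbtb32, a repressor known from B-1 and memory B cells. Zbtb32 itself was at 115 to 1772 CPM in 8 Control cells and had no read in IgAN gated cells. A Control cell on plate 326 held Ighg1 at 2807 CPM and Igha at 1240 CPM with 32.0 CPM of Ighm.

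IgA was the class of 3 Control cells, and they had the genes of plasma cells. Igha (chromosome 12, 113254830 to 113260236, GRCm38) stood at 7346 CPM in well F5 of plate 314, 8323 CPM in well N1 of plate 317 and 5748 CPM in well J11 of plate 321. Jchain, which links IgA into dimers, was at 5865, 4611 and 4378 CPM. Tnfrsf17, the survival receptor BCMA of plasma cells, was at 223, 451 and 1200 CPM. In the same cells Ms4a1 and Fcmr had no read and Ighm was at most 22.4 CPM. Cell F5 also held Ighg2b at 2311 CPM.

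No Igha read was found in any of the 1798 IgAN cells, gated or not, while the Control cells held 9184. These reads lay along the rows and columns of the plasma-like cells. On plate 314 all 35 other cells in row F or column 5 held 10 CPM or more (exact interval 90.0% to 100%), at a median of 49.2 CPM, against 0 of 313 in other wells. On plate 317 the counts were 33 of 33 in row N or column 1 and 1 of 299 elsewhere. On plate 321 they were 31 of 31 in row J or column 11 and 2 of 266 elsewhere, with medians of 112 CPM and 0 CPM. On plate 326, where the highest Igha cell held 1240 CPM and no Jchain, the counts were 1 of 35 and 0 of 329. Igha at 10 CPM or more in 12 of 125 Control gated cells counts these 4 cells and 8 at 46.8 to 185 CPM, and all 8 lay in the row or column of the high cell of their plate and led with Ighm. The 0 of 44 in IgAN allows up to 6.82% of gated cells.

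**Figure D4:**
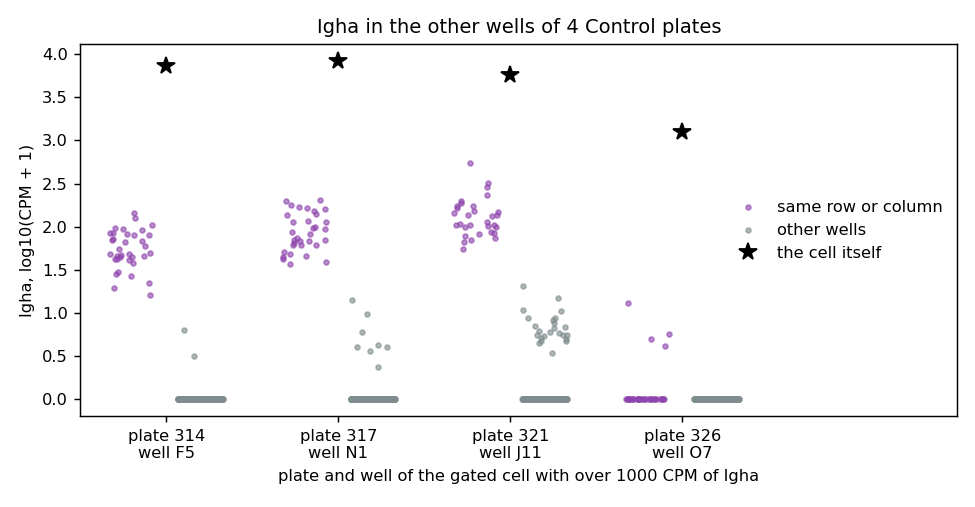
Igha level (y axis, log10 of CPM plus 1) in the 4 Control plates for the gated cell with over 1000 CPM (star), for cells in its row or column (purple) and for cells in all other wells (grey). On plates 314, 317 and 321 every cell in the row or column is above 10 CPM and nearly all others are at 0.

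Kappa light chain transcript was near general. Igkc, its constant gene, was at 10 CPM in 37 of 44 IgAN and 118 of 125 Control gated cells, against 21.9% and 53.4% of row or column neighbours outside the gate. At 100 CPM it was in 35 and 110 gated cells, against 0.779% and 3.40% of neighbours. Among marker-low cells it was in 26 of 26 and 112 of 115 at 10 CPM, and in 26 and 107 at 100 CPM. Its level in these cells was 2417 CPM in IgAN and 2190 CPM in Control. Lambda constant reads were also common, at medians of 332.5 reads in IgAN and 381.5 in Control marker-low cells with 10 heavy chain variable reads, beside 436.5 and 450.5 kappa reads. Kappa reads outnumbered lambda reads in 32 of 44 IgAN and 74 of 125 Control gated cells, so the constant genes alone did not split the cells by light chain. Variable genes did so more clearly. Lambda variable reads outnumbered kappa variable reads in 10 Control cells and in 0 of 44 IgAN cells, and 5 of the 10 held at least 100 lambda variable reads and at most 10 reads of Igkc.

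Each marker-low cell mostly led with 1 heavy chain variable gene. All 26 IgAN and 112 of 115 Control cells had at least 10 such reads. The leading gene held a median of 92.4% of them in IgAN (48.9% to 100%) and 58.9% in Control (22.6% to 100%). The medians of the IgAN plates were 93.1%, 92.3%, 93.0%, 89.2% and 71.0%, and those of the Control plates 69.7%, 58.4%, 70.9% and 51.7%. Where a 2nd gene had reads, it was of the same variable gene family in 18 of 23 IgAN cells and 90 of 108 Control cells, and the leading family held a median of 100% in both groups. Variable genes of a family are alike in sequence, and their reads can be split by the counting. The gene names are thus uncertain and the family is the firmer label. Whether such splitting bears on the shares above was not tested. Among marker-low cells in which 1 gene held over 50% of the cell's Ighv reads, 18 different genes led in 25 IgAN cells and 38 in 70 Control cells.

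Beyond the receptor, genes that pass on its signal were carried by both groups with 1 call. Over 25 measured genes of receptor signalling the median log2 difference was 0.02 (14 positive), beside -0.19 over all 8911 measured genes in these cells. In all gated cells it was -0.40 (7 of 25 positive) beside 0.04 over 9685 genes. A gene was called higher or lower when its log2 difference was at least 1 in size. All plates with 3 or more cells of one group also had to lie beyond all such plates of the other. In marker-low cells plates 315 (2 cells) and 325 (0 cells) fall under that number. The rule then has fewer IgAN plates to clear and is easier to meet, so counts of calls in the 2 sets of cells are not alike. Of the 9685 genes, 0.299% were called higher (29) and 2.82% lower (273) in IgAN gated cells. In the signalling list 1 of 25 was called lower, Plcg2, the phospholipase that turns receptor engagement into calcium release, and none higher. Plcg2 was at 177 CPM in IgAN and 553 CPM in Control, with IgAN plates from 0.529 to 414 CPM and Control plates at 471, 742, 514 and 502 CPM. In marker-low cells it was at 212 and 555 CPM and was not called. The adaptor Blnk (855 and 543 CPM in marker-low cells), the scaffold Bank1 (897 and 458 CPM) and the kinase Btk (367 and 121 CPM) were not called either, nor were Syk (528 and 620 CPM) and Lyn (347 and 541 CPM).

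B cell transcription factors gave no call in either set of cells. Of 21 measured, 14 were positive in marker-low cells, with a median of 0.10. Ebf1, which opens the B cell program, was at 342 CPM in IgAN and 185 CPM in Control, Pax5 at 493 and 506 CPM, and Pou2af1, the co-activator of Oct factors, at 973 and 540 CPM. Spib, an Ets factor of mature B cells, was at 751 and 1324 CPM, and at 392 and 1216 CPM in all gated cells, where the IgAN plates (14.8 to 1244 CPM) overlapped the Control plates (1097 to 1318 CPM).

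Genes of follicular B cells were the most abundant subset genes in the members. Of the 10 on the list, 9 were positive in marker-low cells with a median log2 difference of 0.57, while in all gated cells 5 were positive with a median of -0.02, and none was called. The homing receptor Ccr7 was at 4127 CPM in IgAN and 2876 CPM in Control marker-low cells. Its IgAN plates were at 3872, 3962, 4601 and 3825 CPM and its Control plates at 3195, 2658, 3478 and 2358 CPM, without overlap, but the log2 difference was 0.52. Fcer2a was at 100 CPM or more in 21 of 26 IgAN and 49 of 115 Control marker-low cells. Per plate this was 7 of 7, 2 of 2, 6 of 7, 3 of 6 and 3 of 4 in IgAN and 7 of 18, 11 of 22, 12 of 36 and 19 of 39 in Control, so plate 318 equalled plate 317. Il4ra, the interleukin 4 receptor chain, went the other way at 93.8 and 319 CPM and was not called.

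Of the other subset lists, 11 of 12 marginal zone genes, 8 of 11 B-1 cell genes and 3 of 11 germinal centre genes were measured. In all gated cells 2.82% of all genes were called lower, and in marker-low cells 8.24%, so single calls in short lists are close to that background. Of 8 measured plasma cell genes, 2 were called lower in all gated cells, Mzb1, an endoplasmic reticulum co-chaperone (241 and 595 CPM), and Edem1, which disposes of misfolded proteins (47.3 and 239 CPM). In marker-low cells Edem1 alone was still called (63.9 and 247 CPM, log2 -1.94), and Mzb1 was at 466 and 626 CPM. The 3 IgA cells of the Control group are part of these sums. Zbtb32 was called lower among 8 measured B-1 genes. Bcl6, the factor of germinal centre cells, was at 371 and 200 CPM in marker-low cells.

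A cell in well H1 of plate 317 had genes of early B cell development. Igll1, a surrogate light chain of pre-B cells, was at 2701 CPM, Vpreb1, its partner, at 1153 CPM, Dntt at 660 CPM, Rag2 at 488 CPM and the proliferation gene Mki67 at 1073 CPM. No other gated cell reached 100 CPM of Igll1. Another, in well E2 of that plate, held 2122 CPM of Siglech and 1279 CPM of Bst2, genes of plasmacytoid dendritic cells. It held 1.98 CPM of Cd79a and 414 CPM of Cd79b and is counted among the marker-low cells. Siglech reached 100 CPM in 3 of 125 Control gated cells, this cell among them, and in 0 of 44 IgAN gated cells.

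Antigen presentation by MHC class II, by which B cells call on T cells, was carried by both groups. Of 13 measured genes, 12 were positive in marker-low cells with a median of 0.39, and 4 in all gated cells with a median of -0.25, with no call. Cd74, the invariant chain, was at 6605 CPM in IgAN and 5922 CPM in Control marker-low cells, with IgAN plates at 8162, 9004, 5786 and 5077 CPM and Control plates at 5681, 5643, 6261 and 5915 CPM. The highest and the lowest plates were both IgAN. H2-Aa was at 2992 and 2131 CPM, and Ciita, the activator of the class II genes, at 458 and 297 CPM.

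Receptors that guide B cells through lymphoid tissue were among the abundant genes of the members. Cxcr5, which draws B cells into follicles, was at 1667 CPM in IgAN and 1435 CPM in Control marker-low cells, and S1pr1, which leads lymphocytes back into blood, at 1390 and 963 CPM. Gpr183, an oxysterol receptor of follicle positioning, was at 896 and 466 CPM. Of 15 homing receptors 9 were positive in these cells and 1 was called lower, S1pr4, at 2.11 and 160 CPM, which was not called in all gated cells at 28.4 and 164 CPM. That 1 of 15 is not above the 8.24% of all genes called lower in marker-low cells.

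Survival receptors for the cytokine BAFF differed in sign from each other without a call. Tnfrsf13c, the BAFF receptor of resting B cells, was at 575 CPM in IgAN and 496 CPM in Control marker-low cells, while Tnfrsf13b (TACI), which also binds APRIL, was at 208 and 344 CPM. Of 16 survival and cytokine receptor genes none was called in all gated cells, and 2 were called lower in marker-low cells, beside 8.24% of all genes. These were Bcl2l1 and Bcl2a1b, inhibitors of cell death, at 4.22 and 25.9 CPM and at 6.91 and 41.0 CPM. Inhibitory receptors gave no call among 12 measured genes in all gated cells or 10 in marker-low cells. Cd22 was at 941 and 693 CPM in marker-low cells, Cd72 at 298 and 552 CPM and Fcgr2b, the inhibitory Fc receptor for IgG, at 99.6 and 136 CPM.

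Immediate early genes, which rise within minutes of activation or of tissue digestion, gave no call in either set of cells. Nr4a1, a marker of recent receptor engagement, was at 3206 and 3260 CPM in all gated cells and at 3924 and 3256 CPM in marker-low cells. Fos was at 2319 and 2128 CPM, Junb at 1490 and 1451 CPM and Zfp36 at 1798 and 1540 CPM. Over 23 genes the median was 0.13 in all gated cells and -0.01 in marker-low cells. The 20 cytosolic ribosomal proteins had medians of -0.13 and 0.15. Cell cycle genes were low in both groups, with a median difference of -0.94 over 13 measured genes and -2.50 over 11 in marker-low cells, where 3 of the 11, Ccnb2, Aurkb and Tyms, were called lower, beside 8.24% of all genes. Mki67 reached 100 CPM in 4 of 125 Control and 0 of 44 IgAN gated cells.

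Interferon response genes had the highest median of the pathway lists in all gated cells. Of 25 measured genes, 23 were positive with a median log2 difference of 1.34, beside 51.7% positive and a median of 0.04 over all genes. Stat2 was the 1 called lower, beside 2.82% of all genes. The IgAN plates ran from -0.63 to 1.31 on this list and the Control plates from -0.82 to 0.16, each against the Control sum. Every IgAN plate thus lay under the 1.34 of the summed cells, and plates 313, 315 and 318 were below 0. Macrophage and monocyte markers summed to 2994 CPM in IgAN and 1107 CPM in Control gated cells, with all 9 genes read in both groups and plates at 57.8 to 5269 CPM in IgAN and 76.1 to 1958 CPM in Control. Endothelial markers summed to 2330 and 626 CPM, with plates at 385 to 9920 and 523 to 751 CPM. In marker-low cells these sums were 98.4 and 92.5 CPM for macrophage and 669 and 610 CPM for endothelial markers, and the interferon median was 0.37 with 12 of 17 positive, beside 44.1% positive over all genes.

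Rtp4, a receptor chaperone induced by interferon, was among the genes called higher in marker-low cells, where 0.707% of 8911 genes were called higher (63) and 8.24% lower (734). It was at 18.0 CPM in IgAN and 2.71 CPM in Control, with IgAN plates at 41.7, 22.6, 8.46 and 12.6 CPM and every Control plate at 6.31 CPM or less, without overlap. In all gated cells it was at 113 and 24.0 CPM and was not called, and its T cell log2 difference was -2.17. Stat2, a transcription factor of the type I interferon response, was called lower in these cells as well, at 1.34 and 79.5 CPM.

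Of 13 measured Toll-like receptor genes, 1 was called lower in all gated cells, Tlr6 at 0.099 and 15.0 CPM, and none higher. Of all genes in those cells, 2.82% were called lower. In marker-low cells 8.24% of all genes were called lower and 0.707% higher, so 1 lower call in 12 is close to that background. There 1 of 12 was called lower, Ly96, the partner of Tlr4, at 0.768 and 12.9 CPM, and 1 higher. The latter was Tlr7, a receptor for single-stranded RNA in endosomes, at 75.4 and 3.63 CPM, with IgAN plates at 19.9, 73.1, 74.5 and 151 CPM and Control plates at 0.271, 1.52, 1.98 and 7.76 CPM.

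**Figure D5:**
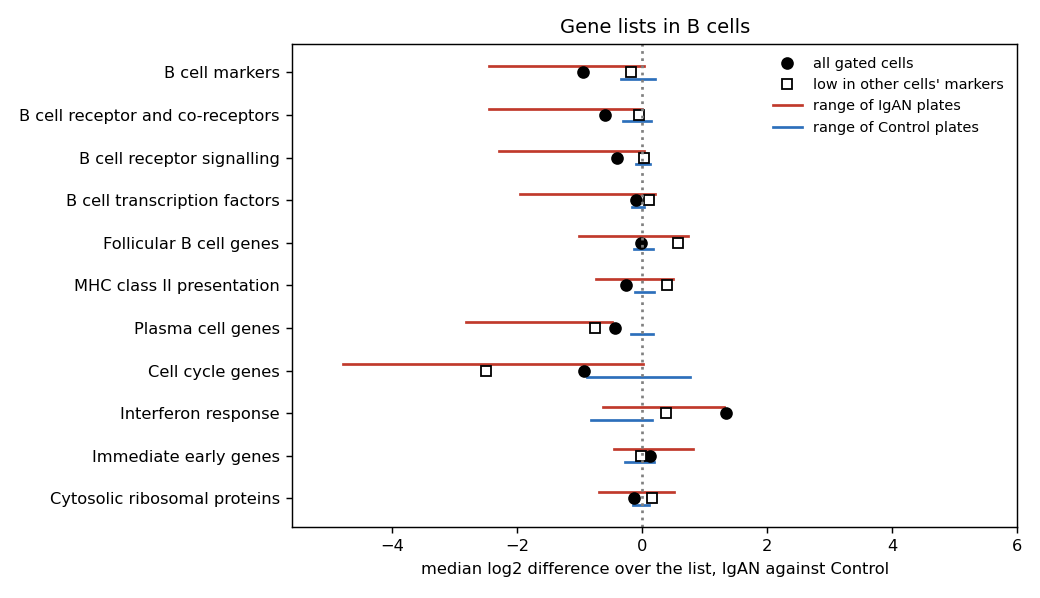
Median log2 difference (x axis, IgAN against Control) of 11 gene lists in all gated cells (filled circles) and marker-low cells (open squares). Lines give the range of IgAN plates (red) and Control plates (blue) for all gated cells, each plate against the Control sum, and the red and blue lines overlap for all lists shown but plasma cell genes.

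Among single genes outside the lists, and leaving out the Gm genes, the 12 with the largest differences called higher included 9 whose level in all other cells of the fraction was above that in IgAN gated cells. Clec1a, an endothelial lectin, was at 63.5 CPM in IgAN and 2.77 CPM in Control gated cells, and at 231 CPM in all other cells. Cx3cl1, the chemokine fractalkine, was at 56.3 and 3.95 CPM, and Arhgap29 at 36.2 and 2.06 CPM. Cx3cl1 was at 250 CPM on plate 325 and at 6.55 to 16.8 CPM on the other IgAN plates, against 1.52 to 5.51 CPM on Control plates, and its log2 difference went from 3.53 to 1.35 without plate 325. Clec1a, Arhgap29, Peg3, Fermt2 and Olfr1396.1 no longer reached the measured level without that plate, Thra without plate 322, and Acer2 went from 3.19 to 1.15 without plate 325. Others were Thra, Acer2, Peg3, Fermt2, Pgs1 and Dusp3, with log2 differences of 2.44 to 3.62, and a repeated gene name, Olfr1396.1, at 3.61. Fcgrt, the neonatal Fc receptor that salvages IgG, was at 347 and 38.3 CPM, and macrophages and endothelium are known to carry it too. Its log2 difference went from 3.15 to 2.03 without plate 322, and it was not called in marker-low cells (159 and 25.6 CPM), with TMM scaling or with each cell weighted the same. Mapk14, the stress kinase p38, was called in marker-low cells as well, at 208 and 43.2 CPM, with IgAN plates at 275, 125, 233 and 283 CPM and Control plates at 30.1, 35.0, 103 and 4.38 CPM. Its T cell log2 difference was 0.22, and with TMM or median-of-ratios scaling it was no longer called, at log2 2.00 and 2.03 with overlapping plates.

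Genes called lower were mostly read in few cells. The 273 had a read in a median of 20.5% of IgAN and 21.6% of Control gated cells, with plates of 4 to 10 gated cells in IgAN and 19 to 42 in Control. The part of these cell numbers in the lower calls was not tested. Among 2253 genes with a read in at least 50% of the cells of both groups, 0.932% (21) were called lower and 0.399% (9) higher. The largest of the 273 were Tmem14c, a mitochondrial porphyrin carrier (0.993 and 87.2 CPM), the nuclear pore protein Nup93 (1.19 and 91.0 CPM), the lysosomal ATPase Atp13a2 (3.97 and 150 CPM), Atg2a, which acts in autophagy, and Slc33a1, the acetyl-CoA transporter. Plbd2, Men1 (menin), Naa40, Vipas39, Ndrg3, Snhg20 and Acap3 followed at log2 differences of -4.64 to -4.45. In T cells the differences were -2.73 for Tmem14c, 0.08 for Nup93 and 0.91 for Atp13a2. Cdkn1c, a cell cycle inhibitor of podocytes, had a read in 93.6% of Control and 38.6% of IgAN gated cells at 35.0 and 3.28 CPM.

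Gm13340, annotated as an unprocessed pseudogene (chromosome 2, 22588103 to 22589647, GRCm38), split the groups completely. It was at 1092 CPM in IgAN and 4.19 CPM in Control gated cells, with single cells at 66.2 to 4480 CPM in IgAN and 0 to 42.8 CPM in Control. The log2 difference was 7.72 in gated cells and 7.32 in T cells. Read lengths and alignment settings of single plates are not given in the labels, and whether they differed between IgAN and Control plates, which would bear on every value compared between the groups, was not tested. Of the 29 genes called higher, 9 were unnamed models of this kind.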

How the data were processed

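Single glomerular-fraction cells of adult mice were read by Smart-seq2. The authors deposited 1 table of raw counts, whole reads per gene for 46517 gene names and 3143 cells. Per the submitters' processing notes the tools were TopHat2 2.1.1, SAMtools 0.1.18 and featureCounts (Subread 1.4.6-p5), on GRCm38 (mm10). Which tool did what, and the annotation, strand setting, duplicate handling and cell filters, are not given in those notes. Cell totals ran from 50365 to 1135415 reads. No columns were identical.

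Reads were scaled to CPM per cell. For comparisons they were summed over the gated cells of a treatment or plate. Genes were measured at 10 CPM or more with a read in at least 10% of gated cells of 1 group. Log2 differences used a pseudocount of 1 CPM. Named genes were the 5 markers, the 4 most abundant members and every called member of each list described, the 12 largest called differences each way with a read in at least 25% of cells (without unnamed models and other cells' markers), and the 20 leading genes, and further members were named after their values were seen. Shares carry exact binomial and sums exact Poisson intervals (95%). The limit for a count of 0 is 3 counts. The calling rule was run on simulated counts with changes far larger than its log2 limit of 1. Smaller changes and differences between plates were not simulated, so the run does not show how the rule acts on them. Python 3.11.15, scipy 1.17.1, edgeR 4.0.16 and DESeq2 1.42.0 (scaling factors only) were used. Coordinates came from GENCODE (GRCm38) and promoters from RefSeq. The members and gene lists were chosen with earlier results of these data known. Some genes that the naming rule selects are not reported here.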

Additional observations from a re-analysis of the deposited data

Results flagged for a closer look

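Values of plate 325 stood apart from the other 5 IgAN plates by Dixon's test at the 95% level in 5 of 24 sets of IgAN plate values examined, where chance flags about 1 in 20. Its gated cells held 9920 CPM of summed endothelial markers and 1415 CPM of summed proximal tubule markers, each the highest of the IgAN plates. Against the Control sum, its median log2 difference was -2.29 for receptor signalling and -1.96 for B cell transcription factors, both the lowest, and 0.014 for cell cycle genes, the highest. None of its 10 gated cells was low in other cells' markers.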

How the results depend on the processing

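No paired analysis was possible because the labels name no animal and each plate holds 1 treatment. Over 377 values recomputed for shares, counts and list medians, 334 stayed within the limit set for them. That limit was the exact interval for shares and the plate spread for list medians. For counts of called genes it was a fixed fold change. Asking for 50 CPM of each of Cd79a and Cd79b, or for cells low in other markers, gave an IgAN share of 1.45%. Without cells at 500 CPM of other markers the shares were 0.612% (IgAN) and 4.24% (Control). That leaves fewer IgAN cells than the 26 marker-low ones, and all values of this setting rest on those few cells. With it 334 genes were called higher and 1372 lower. The list medians were -0.021 for B cell markers, 0.059 for the receptor and co-receptors, 0.63 for follicular and -2.20 for plasma cell genes. They were 0.57 for MHC class II, 0.23 for interferon, -4.69 for cell cycle and 0.39 for ribosomal genes. Ighd was found, and Ighm led, in 100% of the IgAN cells left. In marker-low cells, chosen after seeing the data, 63 genes were called higher and 734 lower, with medians of -0.19 for B cell markers, 0.57 for follicular, 0.39 for MHC class II, 0.37 for interferon and -2.50 for cell cycle genes, and Ighd in 96.2% of IgAN cells. A filter of 50 CPM and 25% of cells left 17 higher and 85 lower. With no filter 425 were lower and the plasma cell median was -1.30. A Cd79 sum of 600 CPM gave 515 lower and an MHC class II median of 0.21. Plates of at least 5 cells gave 45 higher, and a read in 50% of both groups, also chosen after seeing the data, left 9 higher and 21 lower. With 1 read as the limit, Ighd was found in 80.0% of Control cells. Leaving out 1 plate at a time gave 36 (without 321) to 57 (without 313) genes higher and 338 to 415 lower. The cell cycle median ran from -2.71 (without 325) to -0.52. With 1 plate fewer to clear, the calling rule is easier to meet, and all these counts lay above the 29 and 273 of all plates. They therefore do not measure how stable the calls are. The same holds for the other settings that drop plates, marker-low cells among them. Without plates 315, 316, 317 and 326 the higher counts were 45, 56, 48 and 54, and without 316, 322 and 325 the lower counts were 411, 415 and 410. The medians of the receptor, follicular, MHC class II and ribosomal lists were thus below 0 in all gated cells and above 0 without cells at 500 CPM of other markers. The cause was not tested. TMM and median-of-ratios scaling shifted all log2 differences by -0.13 and -0.11. None of the 33 single genes named for meeting the size rule changed sign under a setting in which it was measured. Other named genes, such as Nr4a1 and Igkc, had a difference below 0 in all gated cells and above 0 in marker-low cells. With 44 and 26 IgAN cells, or fewer in some settings, classes of a few percent could be missed.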
